A study of Mus musculus with 2 samples.

Results

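The 43 genes described here encode proteins of the cardiomyocyte, the heart muscle cell, and were followed as a view of heart muscle RNA in macrophages sorted from injured mouse hearts. They were taken by gene symbol from a list of sarcomere, calcium handling, junction and channel, and metabolic or secreted genes, 43 of the 19505 genes with a named probe set. All 43 were measured, each by 1 probe set. The samples were MHCII+ macrophages and MerTK− macrophages, both sorted from a CD45+CD11b+ gate of hearts of 10-week-old male C57BL/6 wild-type mice subjected to ischemia–reperfusion (IR), in which a coronary artery is closed and blood flow is then returned. Each population was 1 sample of cells pooled from several hearts, hybridized to 1 array, so that no replicate spread, SD or p-value stands behind any difference. The sources used here do not give the time between IR and the sort, and the methods do not state that MHCII+ cells were also gated on MerTK.

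Cardiomyocytes contract through the sarcomere, in which thick filaments of myosin pull on thin filaments of actin when calcium binds the troponin complex. Titin, the Z-disc and the M-band hold the filaments in register. Calcium enters through the L-type channel, is released from the sarcoplasmic reticulum through the ryanodine receptor and is pumped back by the calcium ATPase SERCA2, which phospholamban restrains. Cardiomyocytes carry neither CD45, the general leukocyte marker, nor CD11b, the integrin of myeloid cells. Macrophages of the injured heart take up dead muscle cells, and several of the 43 genes are also used by macrophages and other non-muscle cells.

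Values are log2 intensities on the deposited scale, and each difference is MHCII+ minus MerTK−. The arrays held 28846 probe sets each, with a median log2 value of 4.61 for MHCII+ and 4.71 for MerTK−. Sensory receptor genes (olfactory, vomeronasal and taste, 1450 probe sets) served as unused genes, and their 95th percentile gave a floor of 4.23 for MHCII+ and 4.67 for MerTK−. A gene counts as above the floor where its higher value exceeds the floor of that array, as 10518 genes did (53.9%). The labels were checked on the genes of the sort. Ptprc, which encodes CD45, was at 15.44 in MHCII+ and 15.42 in MerTK− macrophages, and Itgam, which encodes CD11b, at 17.42 in MHCII+ and 16.45 in MerTK− macrophages. These 2 genes do not tell macrophages from other cells of the gate. In MHCII+ and MerTK− macrophages, macrophage markers were at 12.22 and 11.43 (Adgre1), 16.19 and 15.54 (Csf1r), and 18.50 and 18.49 (Lyz2). Neutrophil markers were high too, at 17.21 and 18.96 (S100a8) and 16.45 and 18.22 (Csf3r). The share of neutrophils in each sort was not tested. H2-Aa, an MHC class II gene, was at 16.71 in MHCII+ and 8.39 in MerTK− macrophages, and Mertk at 8.77 in MHCII+ and 5.97 in MerTK− macrophages, both higher in MHCII+. Ccr2, a chemokine receptor of monocyte-derived cells, was at 16.15 in MHCII+ and 15.18 in MerTK− macrophages (0.96). In its single-cell data the paper places the MHCII+ cluster in a MerTK+CCR2− population and sets a MerTK−CCR2+ population against it. The Ccr2 values of these sorts go the other way, and the reason was not tested. How the arrays are scaled to each other bears on every direction below: over the 4 hybridization spike-in controls the median difference was −0.93, over 23 housekeeping genes 0.49 and over all genes above the floor 0.15. The other control probe sets lay nearer 0, at 0.20 (positive controls), 0.15 (poly-A), 0.09 (ERCC), −0.04 (background by GC) and −0.24 (negative controls). Median levels of the poly-A and ERCC probe sets were below the floor on both arrays.

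Of the 43 genes, 27 were above the floor, 25 of them on both arrays and Ttn and Hrc on the MerTK− array only. Passing on that array only fixes the direction of Ttn and Hrc as lower in MHCII+. Both are among the 23 lower genes counted below, and Ttn is also among the 12 past 2-fold. Of these 27, 12 were at least 2-fold lower in MHCII+ macrophages (44.4%), against 6.88% of all genes above the floor. At least 2-fold higher in MHCII+ were 2 (7.41%), against 13.4% of all genes. The median difference was −0.76, beside 0.15 for all genes above the floor, with quartiles of −0.34 and 0.64. At any size, 23 of the 27 were lower in MHCII+ macrophages, beside 41.5% of all genes above the floor. Unused sensory receptor genes leaned low too, with 94 of 1450 probe sets (6.48%) at least 2-fold lower for MHCII+ against 7 (0.483%) higher. Median levels of the 27 genes were modest, at 5.81 (MHCII+ array) and 6.29 (MerTK− array). No background matched for level was drawn, so the part of low signal in these percentages was not tested. The limit of 2-fold is the one that the study used for its own calls. At a limit of 1.5-fold, 17 of the 27 were lower and 3 higher in MHCII+, against 16.8% and 27.5% of all genes.

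These counts moved with the scaling. With the arrays centred on all genes, 13 of the 27 were at least 2-fold lower in MHCII+ and 0 higher, against 9.56% and 9.92% of all genes. Centred on the housekeeping genes, 17 were lower and 0 higher, against 19.1% and 4.81%. Centred on the hybridization controls, 2 were lower, Myl2 and Tnnt2, and 3 were higher, Atp2a2, Slc8a1 and Gja1, against 0.666% and 54.9%, and the median of the 27 turned to 0.18. The distance between the median of the 27 and that of all genes, −0.90, is the same under each of these centrings. Directions below are those of the deposited values, and a difference between −0.93 and 0 changes sign under hybridization centring, which happened to 11 of the 27 genes. Centring on all genes or on housekeeping genes turned the sign of Tnnc1 alone.

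**Figure D1:**
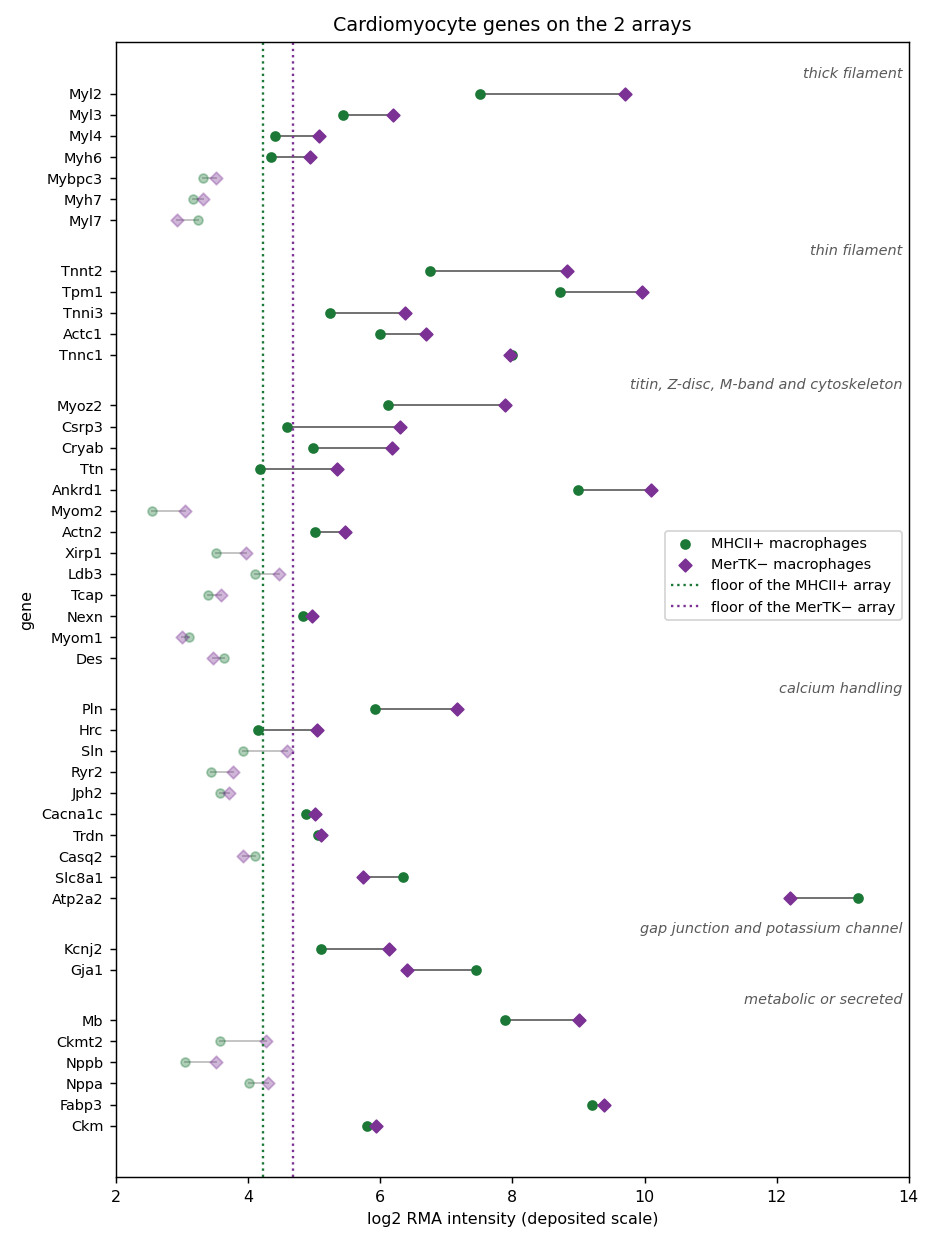
Deposited log2 intensity (x axis) of each of the 43 cardiomyocyte genes (y axis, by role), with circles for MHCII+ macrophages, diamonds for MerTK− macrophages and dotted lines for the floor of each array. Faded genes are at or below both floors. Among genes above the floor, 23 of 27 lie to the left in MHCII+ macrophages, of which 11 change side when the arrays are centred on hybridization controls.

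The thick filament genes encode the myosin heavy and light chains and their binding protein. The widest gap among the 43 genes was that of Myl2, the ventricular regulatory light chain, at 7.50 in MHCII+ macrophages and 9.71 in MerTK− macrophages, a difference of −2.21 (4.62-fold). Myl3, the ventricular essential light chain, was at 5.43 in MHCII+ and 6.19 in MerTK− macrophages (−0.76). The difference of Myl2 minus that of Myl3 was −1.45, whatever the centring. Myl4, the atrial essential light chain, was at 4.40 in MHCII+ and 5.07 in MerTK− macrophages (−0.67). Myh6, the main heavy chain of the adult mouse ventricle, lay close to the floor at 4.34 in MHCII+ and 4.93 in MerTK− macrophages (−0.59). Myh7, Myl7 and Mybpc3 were at or below both floors. The median of the 4 thick filament genes above the floor was −0.71, with 1 past 2-fold. Probes of Myh6 and Myh7, like those of the actins and tropomyosins, may take up RNA of their near-identical relatives, so their assignment is uncertain.

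All 5 thin filament genes were above the floor, and 3 were at least 2-fold lower in MHCII+ macrophages (median −1.14). Tnnt2, cardiac troponin T, which anchors the troponin complex to tropomyosin, was at 6.75 in MHCII+ and 8.82 in MerTK− macrophages (−2.07, 4.20-fold). Tpm1, the alpha-tropomyosin of heart that is also made in many other cells, was at 8.72 in MHCII+ and 9.96 in MerTK− macrophages (−1.23). Tnni3, cardiac troponin I, the inhibitory subunit, was at 5.24 in MHCII+ and 6.38 in MerTK− macrophages (−1.14). The calcium-binding subunit went otherwise. Tnnc1, troponin C of heart and slow muscle, was at 7.99 in MHCII+ and 7.97 in MerTK− macrophages (0.03). Subtracting this from the difference of Tnnt2 gave −2.10. Actc1, cardiac actin, was at 6.00 in MHCII+ and 6.70 in MerTK− macrophages (−0.70). The 3 subunits of the troponin complex thus did not share 1 difference on these arrays.

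Among 13 genes of titin, the Z-disc, the M-band and the cytoskeleton, 7 were above the floor and 5 were at least 2-fold lower in MHCII+ macrophages. The median was −1.16, which is the deposited difference of Ttn, or −1.11 with MHCII+ values under the floor set to it. Myoz2, a calcineurin-binding protein of the Z-disc, was at 6.12 in MHCII+ and 7.90 in MerTK− macrophages (−1.77, 3.42-fold). Csrp3, muscle LIM protein, was at 4.59 in MHCII+ and 6.29 in MerTK− macrophages (−1.70, 3.26-fold). These were the widest gaps of the group. Cryab, a small heat shock protein that binds desmin and titin and is also made outside muscle, was at 4.98 in MHCII+ and 6.18 in MerTK− macrophages (−1.20). Ttn, titin, was at or below the floor in MHCII+ macrophages at 4.17 and above it in MerTK− macrophages at 5.34, at least 2.16-fold lower in MHCII+. Ankrd1, an ankyrin repeat protein that binds titin and is induced by stress, was at 9.0 in MHCII+ and 10.10 in MerTK− macrophages, well above the floor of both (−1.10). Actn2, the sarcomeric alpha-actinin that crosslinks actin at the Z-disc, was at 5.01 in MHCII+ and 5.47 in MerTK− macrophages (−0.46). Nexn, an actin-binding protein of the Z-disc, was at 4.83 in MHCII+ and 4.97 in MerTK− macrophages (−0.14). Not above either floor were Myom1, Myom2, Ldb3, Tcap, Des and Xirp1, so that no M-band gene of the list could be followed.

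Taken over the 25 sarcomere genes, 16 were above the floor, 9 were at least 2-fold lower in MHCII+ macrophages and 0 higher. The 9 include Ttn, above the floor in MerTK− macrophages only, which fixes its direction. The median of the 16 was −1.12. This median stayed below 0 under every scaling tried, at −1.27 with all genes, −1.62 with housekeeping genes and −0.19 with hybridization controls as the centre. Summed on the linear scale, the 16 came to 1869 intensity units in MHCII+ macrophages and 4465 in MerTK− macrophages. Tpm1, Ankrd1, Cryab and Nexn, which other cells also make, held 994 of this in MHCII+ and 2198 in MerTK− macrophages. The other 12 held 875 in MHCII+ and 2267 in MerTK− macrophages. Their median difference was −0.95, next to −0.93 for the hybridization controls, so under that centring it lies close to 0. In such bulk samples, fewer cells of a type and less RNA per cell cannot be told apart.

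Sequences just before the transcription start are given for the 4 genes furthest below in MHCII+ macrophages (Myl2, Tnnt2, Myoz2 and Csrp3) and for Gja1, the gene furthest above, chosen by the size of their differences and not by motifs. Each line holds the 250 bases upstream of the first start that RefSeq (GRCm38.p6) lists, read 5′ to 3′ on the gene's strand, with matches to 4 motifs described next in capitals. In Tnnt2 (chr1:135836084-135836333, plus strand) an MCAT element, the letters CATTCC, stood at bases −27 to −22 before the start, and in Myoz2 (chr3:123034988-123035237, minus strand) a MEF2 site stood at −33 to −24. The windows of Myl2 (chr5:122092474-122092723, plus strand), Csrp3 (chr7:48848052-48848301, minus strand) and Gja1 (chr10:56377050-56377299, plus strand) held none of the 4.
Myl2: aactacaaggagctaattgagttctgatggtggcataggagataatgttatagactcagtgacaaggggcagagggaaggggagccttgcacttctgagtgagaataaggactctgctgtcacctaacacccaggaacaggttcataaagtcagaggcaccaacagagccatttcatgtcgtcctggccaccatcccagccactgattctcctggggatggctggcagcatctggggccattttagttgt
Tnnt2: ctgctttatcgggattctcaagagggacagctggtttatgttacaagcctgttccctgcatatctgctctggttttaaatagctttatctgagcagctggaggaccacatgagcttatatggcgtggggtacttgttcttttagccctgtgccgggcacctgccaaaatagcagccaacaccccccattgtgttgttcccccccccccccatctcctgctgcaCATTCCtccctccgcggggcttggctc
Myoz2: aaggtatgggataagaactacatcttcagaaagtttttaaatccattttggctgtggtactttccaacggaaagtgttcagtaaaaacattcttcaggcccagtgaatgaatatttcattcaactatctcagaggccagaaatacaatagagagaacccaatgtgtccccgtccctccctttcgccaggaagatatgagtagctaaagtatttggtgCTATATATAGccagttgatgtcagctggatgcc
Csrp3: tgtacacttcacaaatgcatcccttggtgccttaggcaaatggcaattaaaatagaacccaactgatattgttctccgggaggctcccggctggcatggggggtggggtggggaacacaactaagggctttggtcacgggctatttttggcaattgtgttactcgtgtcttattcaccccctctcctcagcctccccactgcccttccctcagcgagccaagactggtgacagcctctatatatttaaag
Gja1: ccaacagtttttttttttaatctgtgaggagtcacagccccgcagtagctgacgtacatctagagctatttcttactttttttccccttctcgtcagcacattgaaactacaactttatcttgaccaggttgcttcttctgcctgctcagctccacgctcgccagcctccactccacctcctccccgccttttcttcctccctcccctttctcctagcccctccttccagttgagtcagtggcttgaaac

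The MCAT element is read by TEAD factors, the MEF2 site by MEF2 factors and the CArG box by serum response factor, all of them active in muscle and other cells. Of the 27 genes above the floor, 23 had an upstream window, and both strands were searched. The MCAT letters stood in windows of 6 of the 23 (26.1%), Ankrd1, Myh6, Myl3, Tnnc1, Tnnt2 and Tpm1, against 14.4% of 27025 genes with a window. These 6 hold both Tnnt2, with a difference of −2.07, and Tnnc1, with one of 0.03. The MEF2 site was found in 2 (8.7%), Myoz2 and Ttn, against 3.42% of genes, the CArG box in 2 (8.7%), Actc1 and Myl3, against 1.62%, and the TATA box letters TATAAA in 2 (8.7%), Myl2 and Pln, against 14.3%. The letters of the MEF2 site and the TATA box can overlap, and in the windows shown TATAAA itself overlapped no MEF2 site. Looser forms of the TATA box were not searched, and the MEF2 letters of Myoz2, CTATATATAG, hold TATATA. Of the 12 genes at least 2-fold lower in MHCII+, 11 had a window, 7 held 1 or more of the 4 motifs in any of their windows (Myl2 only before its other start) and 4 held none, Tnni3, Csrp3, Kcnj2 and Mb. Of the other genes above the floor, 12 had a window and 4 held a motif. The share of all genes with any of the 4 motifs was not counted, so these numbers have no background. In Myl2 and Pln the only match was TATAAA, at −216 to −211 on the reverse strand in Myl2 and at −219 to −214 in Pln. A match is a run of letters and not a shown binding site.

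Calcium handling genes differed among themselves. Of 10, 6 were above the floor, with 1 at least 2-fold higher and 1 at least 2-fold lower in MHCII+ macrophages, and their median of −0.10 turned to 0.83 under hybridization centring. Atp2a2, which encodes SERCA2 and is used by nearly all cells, was at 13.23 in MHCII+ and 12.21 in MerTK− macrophages (1.03, 2.04-fold). Its cardiac inhibitor Pln, phospholamban, was on the other side at 5.92 in MHCII+ and 7.16 in MerTK− macrophages (−1.24, 2.36-fold). The difference of the inhibitor minus that of the pump was −2.27. Slc8a1, the sodium–calcium exchanger, which macrophages also use, was at 6.34 in MHCII+ and 5.73 in MerTK− macrophages (0.61). Hrc, a calcium-binding protein of the sarcoplasmic reticulum, was at or below the floor in MHCII+ macrophages at 4.15 and above it in MerTK− macrophages at 5.04, at least 1.76-fold lower in MHCII+. The channel and anchoring genes were close to equal. Cacna1c, the pore of the L-type channel, was at 4.87 in MHCII+ and 5.01 in MerTK− macrophages (−0.14), and Trdn, triadin, at 5.05 in MHCII+ and 5.11 in MerTK− macrophages (−0.06). The ryanodine receptor Ryr2, the calcium buffer Casq2, the junction protein Jph2 and the pump regulator Sln were at or below both floors.

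The junction and channel genes lay on opposite sides, each just past 2-fold. Gja1, connexin 43, the gap junction protein of ventricular muscle that macrophages and fibroblasts also make, was at 7.45 in MHCII+ and 6.41 in MerTK− macrophages (1.05, 2.07-fold). Kcnj2, the inward rectifier potassium channel that sets the resting potential, was at 5.10 in MHCII+ and 6.13 in MerTK− macrophages (−1.03, 2.04-fold). Both calls, like that of Atp2a2, rest on differences within 0.05 of the limit of 1.

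Of 6 metabolic or secreted genes, 3 were above the floor, with a median of −0.19 that turned to 0.75 under hybridization centring. Mb, myoglobin, which stores oxygen in muscle, was at 7.88 in MHCII+ and 9.01 in MerTK− macrophages (−1.13, 2.19-fold). Ckm, muscle creatine kinase, was at 5.81 in MHCII+ and 5.94 in MerTK− macrophages (−0.13), which taken from the difference of Mb left −0.99. Fabp3, the fatty acid carrier of heart, was at 9.20 in MHCII+ and 9.39 in MerTK− macrophages (−0.19). The natriuretic peptides Nppa and Nppb and the mitochondrial creatine kinase Ckmt2 were at or below both floors. Over all 16 genes at or below both floors, differences ran from −0.68 to 0.31 with a median of −0.24, beside −0.23 for the sensory receptor probe sets, and 0 were 2-fold apart.

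**Figure D2:**
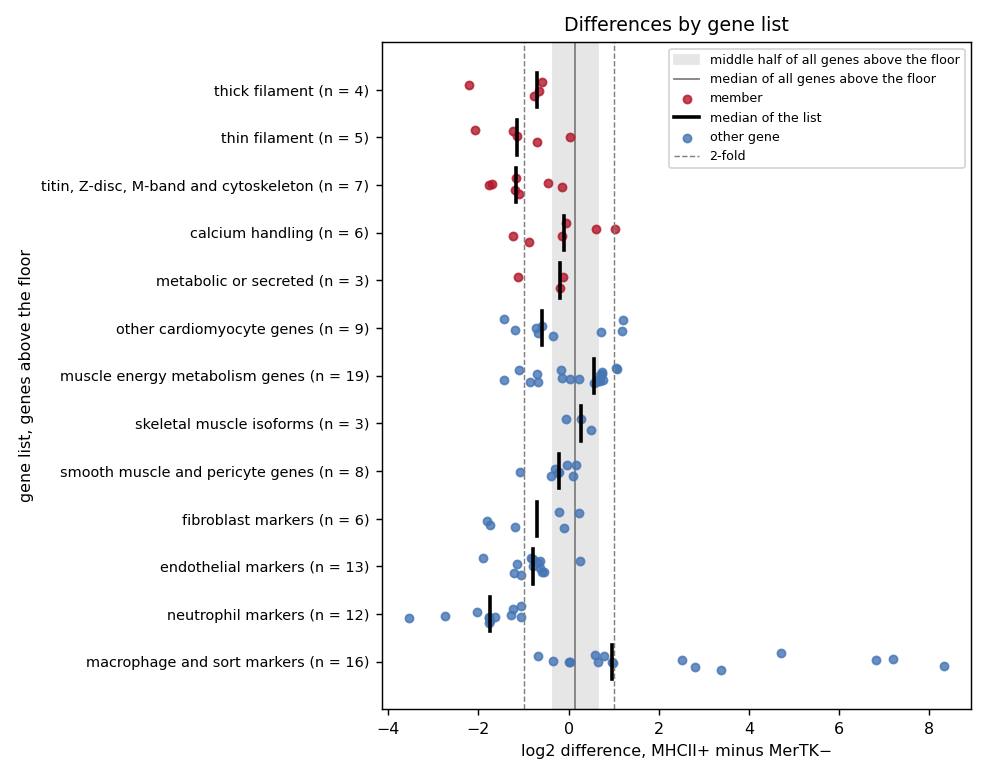
Log2 difference, MHCII+ minus MerTK− macrophages (x axis), of every gene above the floor in each list (y axis), with the list's median as a bar and the interquartile range of all genes above the floor shaded. The thin filament list and the list of titin, Z-disc, M-band and cytoskeleton have medians of −1.14 and −1.16, and the calcium handling genes spread over both sides of 0, on deposited values, and hybridization centring would move the controls' −0.93 to 0 and every gene by as much, which turns the calcium handling median positive.

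The median of the sarcomere genes minus that of the calcium handling genes was −1.02 (−1.12 against −0.10), and this distance does not depend on how the arrays are centred. It did depend on which genes were counted. Among the 43, 11 are also made in cells other than muscle, and 10 of these were above the floor with a median of −0.17 (4 at least 2-fold lower and 2 higher in MHCII+), which turns positive under hybridization centring. The 32 others had 17 above the floor with a median of −0.89 (8 lower, 0 higher), which lies just above 0 under that centring. This is the difference of Hrc, whose MHCII+ value is under the floor, and with such values set to the floor the median was −0.82. Without the genes made elsewhere, 12 sarcomere genes had a median of −0.95 and 3 calcium handling genes (Pln, Hrc and Trdn) a median of −0.89, again that of Hrc, a distance of −0.06. Once values below the floor were raised to it, the medians were −0.94 for sarcomere and −0.82 for calcium handling genes, a distance of −0.12. Those made elsewhere in the calcium list were Atp2a2, Slc8a1 and Cacna1c, with a median of 0.61. On the linear scale the 17 summed to 1278 intensity units in MHCII+ macrophages, against 3054 in MerTK− macrophages. The sum of the 10 was 11539 in MHCII+ macrophages, against 7834 in MerTK− macrophages, and without Atp2a2 the other 9 came to 1903 in MHCII+ and 3110 in MerTK− macrophages, the opposite side.

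Several cardiac isoforms have relatives of the same family that other cells or skeletal muscle use, and these were set beside them. Troponin T of slow skeletal muscle, Tnnt1, was at 7.25 in MHCII+ and 7.31 in MerTK− macrophages (−0.06), which taken from the difference of Tnnt2 left −2.01. The non-muscle light chain Myl6 was at 14.40 in MHCII+ and 14.50 in MerTK− macrophages (−0.10), against −2.21 for Myl2. The tropomyosins Tpm2, Tpm3 and Tpm4 lay between −0.12 and 0.27, against −1.23 for Tpm1. The heart isoforms were the lower ones in these 3 families. The alpha-actinins went 2 ways, with Actn1 at 8.70 in MHCII+ and 9.92 in MerTK− macrophages (−1.23) and Actn4 at 13.32 in MHCII+ and 12.13 in MerTK− macrophages (1.20), on either side of Actn2 at −0.46. In the creatine kinases, Ckb of brain and other tissues was at 9.38 in MHCII+ and 7.66 in MerTK− macrophages (1.72), against −0.13 for Ckm. Fatty acid carriers beside Fabp3 (−0.19) were further apart, Fabp5 at 11.47 in MHCII+ and 9.53 in MerTK− macrophages (1.95) and Fabp4 at 13.72 in MHCII+ and 15.61 in MerTK− macrophages (−1.89). Over the non-muscle counterparts, 20 were above the floor with a median of −0.05, with 4 at least 2-fold higher and 3 lower in MHCII+ macrophages.

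**Figure D3:**
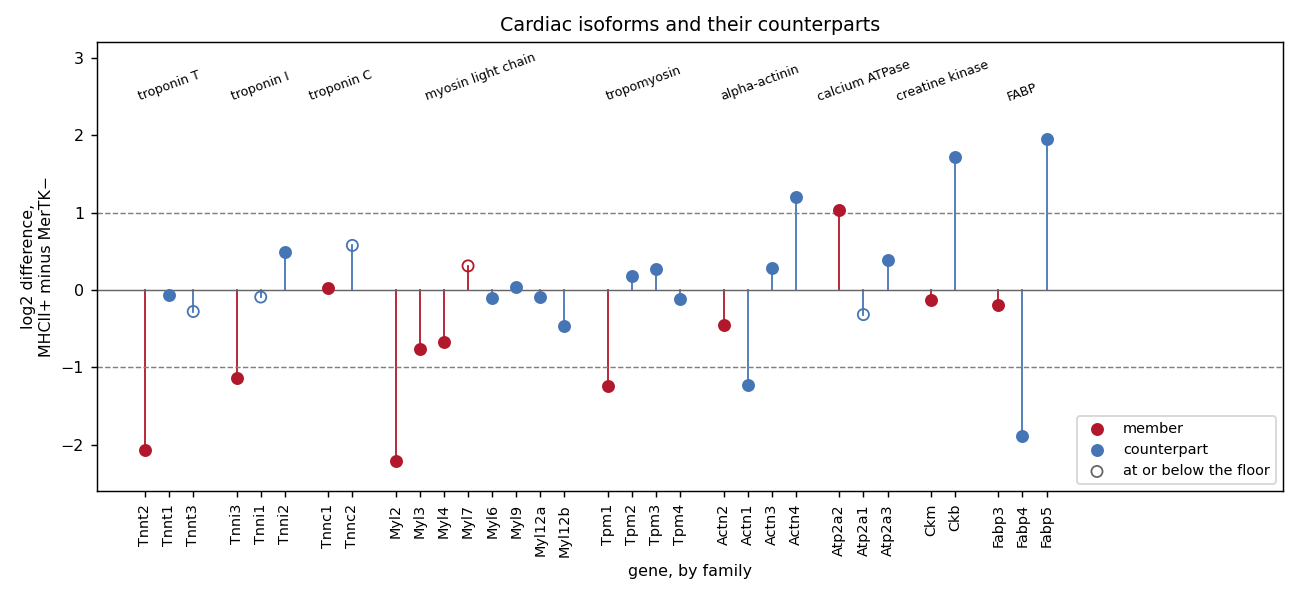
Log2 difference, MHCII+ minus MerTK− macrophages (y axis), of cardiac isoforms and their relatives (x axis, grouped by protein family), with open circles for genes at or below both floors and dashed lines at 2-fold. Tnnt2, Myl2 and Tpm1 lie at −2.07, −2.21 and −1.23, below their relatives above the floor, an order that no centring of the arrays alters.

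Other muscle genes were mostly not above the floor. Of 42 further cardiomyocyte genes measured, 9 were above it, with a median of −0.59 (2 at least 2-fold higher and 2 lower in MHCII+) that turned positive under hybridization centring. Once values below the floor were raised to it, 1 was higher and 1 lower, since Fbxo32 and Fhl2 were then at least 1.66-fold and 1.90-fold apart. Hspb7, a small heat shock protein of heart, was at 5.18 in MHCII+ and 6.36 in MerTK− macrophages (−1.18), and Rrad, a small GTPase that restrains the L-type channel, at 7.92 in MHCII+ and 6.72 in MerTK− macrophages (1.20). Of 22 skeletal muscle genes, 3 were above the floor and 0 past 2-fold. Of 27 muscle energy metabolism genes, many of them mitochondrial enzymes that all cells use, 19 were above it with a median of 0.56. Pygm, muscle glycogen phosphorylase, at 5.47 in MHCII+ and 6.91 in MerTK− macrophages (−1.44), and Cox6a2, a heart and muscle cytochrome oxidase subunit, at 5.04 in MHCII+ and 6.14 in MerTK− macrophages (−1.10), were at least 2-fold lower in MHCII+. The mitochondrial enzymes Fh1, at 9.37 in MHCII+ and 8.31 in MerTK− macrophages (1.07), and Idh3a, at 11.52 in MHCII+ and 10.47 in MerTK− macrophages (1.05), were at least 2-fold higher in MHCII+.

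Markers of other cells moved beside the muscle genes, and their part in the result was not tested. Neutrophil markers were at least 2-fold lower in MHCII+ macrophages in 12 of 12 above the floor (10 once lower values were set to the floor), of 14 measured with Camp and Mpo at or below both floors, and summed to 627369 intensity units in MHCII+ and 1950900 in MerTK− macrophages. Fibroblast markers had 3 of 6 above the floor at least 2-fold lower in MHCII+, of 13 measured, and summed to 5777 in MHCII+ and 7338 in MerTK− macrophages (without Gsn, 583 in MHCII+ and 1797 in MerTK−), with Dcn, the matrix proteoglycan decorin, at 8.91 in MHCII+ and 10.66 in MerTK− macrophages. The fibroblast genes Col3a1, Postn and Tcf21 were at or below both floors. Of the fibroblast genes called lower, Col1a1 and Dpt were above the floor in MerTK− macrophages only, which fixes their direction. The same holds for Ltf and Elane among the neutrophil markers. Endothelial markers had 4 of 13 lower, of 15 measured with Vwf and Cldn5 at or below both floors, and summed to 161264 in MHCII+ and 288391 in MerTK− macrophages, or, without Ly6c1, which monocytes also make, to 16895 in MHCII+ and 55870 in MerTK− macrophages. Most of the sums without Ly6c1 came from Fabp4, also listed among the non-muscle counterparts, at 13.72 in MHCII+ and 15.61 in MerTK− macrophages. The next highest, Eng, was at 9.79 in MHCII+ and 10.43 in MerTK− macrophages. Smooth muscle and pericyte genes had 1 of 8 lower, of 15 measured with Tagln and Cnn1 at or below both floors, and summed to 343 in MHCII+ and 472 in MerTK− macrophages. The medians of these 4 lists were −1.75, −0.71, −0.78 and −0.22, beside −0.89 for the cardiomyocyte genes not listed as made elsewhere, and under hybridization centring the last 4 of these 5 values lie above 0. Epicardial and mesothelial markers had 0 of 7 above the floor. Natural killer cell markers were at least 2-fold lower in MHCII+ in 6 of 7 above the floor (5 once lower values were set to the floor), of 9 measured with Eomes and Il2rb at or below both floors. Gzmb, Nkg7, Ncr1 and Prf1 were above the floor in MerTK− macrophages only, which fixes their direction, and Klrk1 (0.58) went the other way. The summed level was 218 in MHCII+ and 8838 in MerTK− macrophages, or, without Gzma, 181 in MHCII+ and 410 in MerTK− macrophages. Of 7 platelet markers measured, 4 were above the floor. Pf4 was at 13.40 in MHCII+ and 8.95 in MerTK− macrophages and Ppbp at 9.69 in MHCII+ and 4.54 in MerTK− macrophages, while Itga2b (−0.73) and Gp9 (−0.46) lay on the other side under 2-fold. B cell markers passed 2-fold, higher in MHCII+, in 3 of 3 (0 once lower values were set to the floor), and of 4 T cell markers and 1 erythroid marker 0 were 2-fold apart. The B cell genes Cd79b, Ms4a1 and Fcmr were above the floor in MHCII+ macrophages only, which fixes their direction.

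Centring moves every gene by the same amount and so cannot alter the order of the groups. Quantile normalization can, and sarcomere genes were lowest there too. In their higher value, only 4 of the 27 genes, Myl2, Tpm1, Atp2a2 and Ankrd1, exceeded the 95th percentile of that array's negative-control probe sets (9.03 for MHCII+ and 9.66 for MerTK−), as did 3808 genes in all, so that a value above the receptor floor does not by itself show expression.

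**Figure D4:**
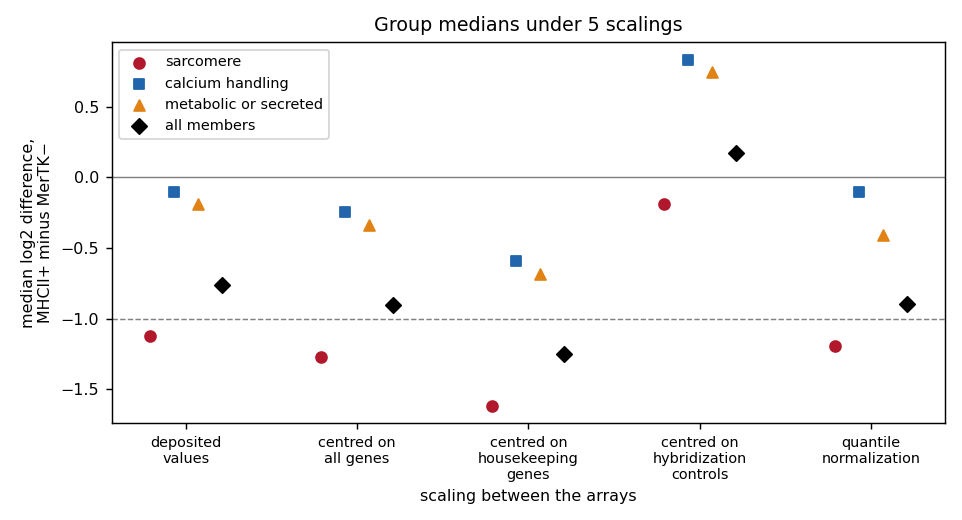
Median log2 difference, MHCII+ minus MerTK− macrophages (y axis), of each group of cardiomyocyte genes above the floor under 5 scalings between the arrays (x axis), with dashed line at 2-fold. The sarcomere median runs from −1.62 to −0.19 (its place among the groups is fixed under the centrings), while the median of all 27 genes turns to 0.18 with hybridization controls as the centre.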

How the data were processed

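RNA of 2 sorted populations was measured on 1 mouse Clariom S array each. The values are log2 intensities as deposited. The authors normalized them, as their methods state, by the Robust Multiarray Average with default settings and global scaling, and the submitters' processing notes give Affymetrix Expression Console without a version. The series description names an older array, but probe set names and annotation are those of Clariom S. A genome build was not given in the sources used here. Of 22206 transcript probe sets, 19572 carry 1 gene symbol, 0 several and 2634 none. The highest values were 19.8 for MHCII+ and 19.4 for MerTK−, with 337 and 331 probe sets above 16, the log2 of a 16-bit scanner's maximum, so that values were moved after the scan. Global scaling multiplies each array by its own factor, which shifts the differences of all genes alike and keeps their order. On a stretched scale folds would be too large. Scaling and stretching were not told apart. Where several probe sets named 1 gene, that of highest mean stood for it. A fold whose lower value did not exceed its floor is a bound against the floor, written at least. Every one of the 43 genes is named. From each other list, up to 2 genes in each direction past 2-fold were eligible and some are left out. The 43 genes and the 16 other lists were chosen with earlier results of these data known. Precision is limited by having 1 array a population, and no test was possible. Upstream windows came from RefSeq. Python 3.11.15 with pandas 2.3.3 and numpy 2.4.6 was used, and the steps were tested on simulated data.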

Additional observations from a re-analysis of the deposited data

How the results depend on the processing

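With arrays centred on all genes, the count of cardiomyocyte genes 2-fold or more higher in MHCII+ was 0, and the medians were −0.90 over all 27, −1.27 for sarcomere, −0.25 for calcium handling and −0.34 for metabolic or secreted genes. With housekeeping centring these were 0, −1.25, −1.62, −0.59 and −0.68. With hybridization centring 2 genes were lower, and the medians were 0.18, −0.19, 0.83 and 0.75, of which the first and the last 2 were reversed. Quantile normalization gave 1 higher, −0.89 over all and −0.40 for metabolic genes. Compressing the scale to a maximum of 16 gave 0 higher and −1.01 for sarcomere genes. With no floor the medians were −0.46 over all, −0.59 for sarcomere and −0.38 for metabolic genes. A floor at the 99th percentile gave −1.10 over all and a reversed 0.61 for calcium handling genes. A floor at the 95th percentile of negative controls left 3 lower and 1 higher, with −1.17 over all, −1.23 for sarcomere and a reversed 1.03 for calcium handling genes, and no metabolic gene. Without genes made elsewhere, 0 were higher, and the medians were −0.89 over all, −0.95, −0.89 and −0.63. A limit of 1.5-fold gave 17 lower and 3 higher, against 16.8% and 27.5% of all genes. In a comparison chosen after seeing the data, the log2 ratio of summed levels of the genes made elsewhere was 0.56 and turned to −0.71 without Atp2a2. The cause of these shifts was not tested beyond the fewer genes that a higher floor or a shorter list leaves. Of the 12 genes called lower, 12 kept the call under all-genes, housekeeping and quantile scaling, 11 under compression and 2 under hybridization centring. No paired analysis was possible because each population had 1 array, and no replicate could be left out. Genes near the floor have little signal over background, which limits the smaller differences.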
